A study of Mus musculus with 6 samples.

Results

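The genes examined were 10 genes known for their high expression in white fat cells, namely Adipoq, Lep, Retn, Plin1, Plin4, Cidec, Lpl, Fabp4, Lipe and Pparg. They were found by symbol among the 27546 genes of the deposited expression table, and all 10 had a row. The libraries came from colon of 3 Gm31629-/- mice and 3 WT littermates on the C57BL/6 background (C57BL/6J in the methods), and each library was treated as that of 1 mouse. The 6 mice, aged 8 weeks, drank 3% dextran sulfate sodium (DSS, which injures the colonic epithelium) for 7 days and were killed on day 8, so both genotypes were injured and no untreated mouse was analysed here. Gm31629 is a long noncoding RNA, and its deletion is not described as limited to a cell type. The level of Gm31629 itself was not analysed here. Neither the labels nor the study's methods say whether muscle or mesenteric fat was trimmed from the tissue. The methods speak of pooled RNA, while the table has 1 column per sample, and the columns were treated as separate mice. Values are FPKM, which are fragment counts scaled by gene length and library depth, and a fragment is 1 sequenced piece of cDNA.

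White fat cells store triglyceride in a single large droplet and lie in the mesentery along the outer wall of the gut. The droplet is coated by perilipins and CIDE proteins, it is filled with fatty acids that lipoprotein lipase frees from circulating lipoproteins, and it is emptied by lipases that include hormone-sensitive lipase. PPARG is the transcription factor that drives fat cell differentiation, and mature fat cells secrete adiponectin, leptin and, in mice, resistin. Several of these genes are also used by other cells of the colon wall: Pparg by absorptive epithelium, Fabp4 by capillary endothelium, and Lpl by macrophages and muscle.

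The depth was 18003900 to 18796300 mapped fragments per library, as recovered from the size of 1 fragment. The library of Gm31629-/- mouse 1 held transcripts of the Y-linked genes Ddx3y (9.27 FPKM), Eif2s3y, Kdm5d and Uty and almost no Xist (0.00606 FPKM), and the other 5 libraries held none of those 4 genes and 8.35 to 13.8 FPKM of Xist, although the methods name male mice. The library of Gm31629-/- mouse 3 alone held pancreatic acinar transcripts, with a sum over 6 such genes of 1849 FPKM against 0.0681 to 0.522 in the other 5. Smooth muscle markers separated the genotypes, with sums of 1105 to 1679 FPKM in Gm31629-/- mice and 6.55 to 23.9 in WT mice. Fits that left out 1 library are given beside the results for the 10 genes.

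In Gm31629-/- mice, 7 of the 10 genes rose, Pparg fell, Plin1 did not pass the test, and Lep was too low to be tested. The rise was largest for the fatty acid binding protein gene Fabp4 (log2 fold change 4.16) and the droplet coat gene Plin4 (2.92), and smallest for Cidec (1.07). Among the Gm31629-/- libraries, mouse 2 had the highest value for 9 of the 10 genes, all but Pparg, and for 44.0% of all tested genes. Genes were compared with limma on log2(FPKM + 1) over the 14657 genes with a mean of at least 0.5 FPKM, with p-values adjusted by Benjamini-Hochberg. The error given with a log2 fold change is its standard error. Calls required an adjusted p under 0.05 together with a log2 fold change beyond 1 in either direction. Of all tested genes, 18.4% were called higher and 4.64% were called lower, so calls are common in this comparison. Of the list, 9 genes passed the filter, and Retn, Plin1 and Plin4 did so only through the Gm31629-/- libraries, since their WT means lay below 0.5 FPKM. In bulk tissue, fewer cells of a type and less RNA per cell cannot be told apart.

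**Figure D1:**
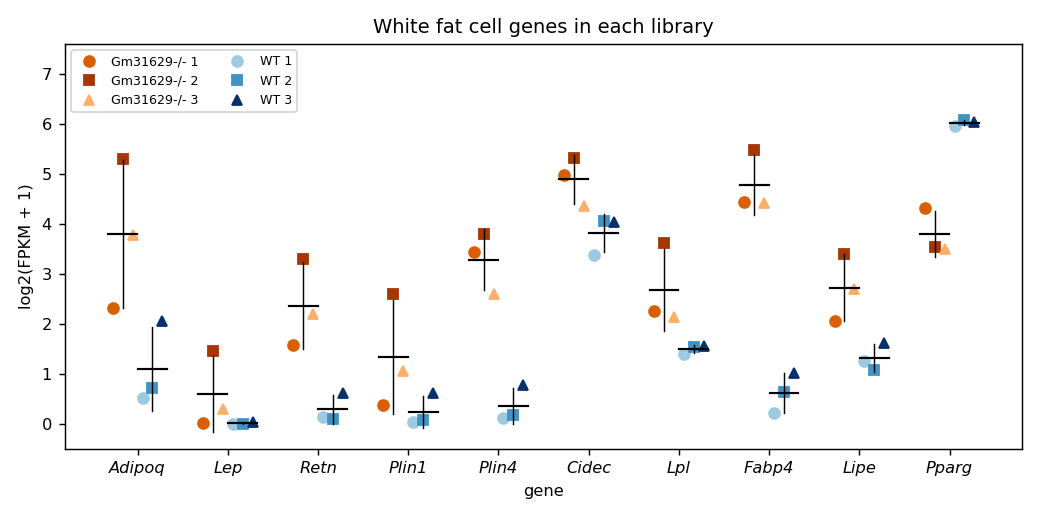
Level of each of the 10 genes in each of the 6 libraries, as log2(FPKM + 1), with Gm31629-/- mice in orange and brown, WT mice in blue, group means as horizontal lines and 1 SD as vertical lines. The groups are apart for 8 genes and overlap for Lep and Plin1, and Pparg is the gene with its WT values on top.

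Adipoq (ENSMUSG00000022878, chromosome 16, 23146536 to 23158028 of GRCm38) encodes adiponectin, a hormone made almost only by fat cells. It had 4.01, 38.3 and 12.8 FPKM in Gm31629-/- mice 1 to 3, and 0.431, 0.643 and 3.16 FPKM in WT mice 1 to 3. The groups did not overlap, but WT mouse 3 (82 fragments) came close to Gm31629-/- mouse 1 (102 fragments), and mouse 2 carried 69.5% of the Gm31629-/- total. The means were 18.4 ± 17.8 and 1.41 ± 1.52 FPKM (SD, n = 3 each), a 13.0-fold difference with a log2 fold change of 2.70 ± 0.75 (limma, adjusted p = 0.0238). The call was lost without Gm31629-/- mouse 3, WT mouse 1 or WT mouse 2 (limma adjusted p = 0.0674, 0.0805 and 0.0736), and over all alternatives the adjusted p ranged from 0.0054 to 0.26.

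Retn (ENSMUSG00000012705, chromosome 8, 3655770 to 3660110) encodes resistin. Its values were 1.996, 8.85 and 3.59 FPKM in Gm31629-/- mice and 0.103, 0.0703 and 0.539 FPKM in WT mice, where 3, 2 and 16 fragments lay behind them. The library order was that of Adipoq in the Gm31629-/- group, and the groups did not overlap. Retn rose with a log2 fold change of 2.07 ± 0.42 (limma, adjusted p = 0.00762) and kept its call in all 6 fits that left out 1 library. Lep (ENSMUSG00000059201, chromosome 6, 29060220 to 29073877), the gene of the satiety hormone leptin, was nearly confined to a single library. It had 109 fragments in Gm31629-/- mouse 2 (1.76 FPKM), 14 in mouse 3, 1 in mouse 1 and 2 in WT mouse 3. In WT mice 1 and 2 it had none, which allows up to 0.0484 and 0.0497 FPKM at the limit of 3 fragments. The groups overlapped, and without the filter on low values the log2 fold change was 0.58 (limma adjusted p = 0.29).

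Plin1 (ENSMUSG00000030546, chromosome 7, 79720218 to 79732903) encodes perilipin 1, which coats the droplet of fat cells and controls access of lipases to it. It had 0.292, 5.05 and 1.09 FPKM in Gm31629-/- mice and 0.0233, 0.0478 and 0.526 FPKM in WT mice. WT mouse 3, with 46 fragments, lay above Gm31629-/- mouse 1, with 25, so the groups overlapped, and mouse 2 held 78.5% of the Gm31629-/- total. The log2 fold change was 1.11 (standard error 0.53, limma adjusted p = 0.128). It passed only in the fit without Gm31629-/- mouse 1 (log2 fold change 1.59, limma adjusted p = 0.0318), which left the 5 libraries with Xist, and the adjusted p lay between 0.0318 and 1 over all alternatives.

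Plin4 (ENSMUSG00000002831, chromosome 17, 56100591 to 56109803) encodes a perilipin that binds small, newly formed droplets and is also expressed in muscle. Its values were 9.90, 12.8 and 5.09 FPKM in Gm31629-/- mice and 0.0842, 0.135 and 0.709 FPKM in WT mice. All 3 Gm31629-/- values were high, and mouse 1 stood close to mouse 2, unlike in Adipoq and Plin1. Plin4 rose 30.0-fold by the means (log2 fold change 2.92 ± 0.34, adjusted p = 0.000937 with limma), and the call held in every alternative that was run. Cidec (ENSMUSG00000030278, chromosome 6, 113424634 to 113435760) encodes a droplet protein that moves lipid from small to large droplets. It was well expressed in both groups, with 30.6, 39.2 and 19.5 FPKM in Gm31629-/- mice and 9.44, 15.7 and 15.3 FPKM in WT mice. The groups did not overlap, and the difference was 2.21-fold by the means (log2 fold change 1.07 ± 0.29, adjusted p = 0.0237 with limma). Its call was among the least stable. It was lost without Gm31629-/- mouse 1 or 2 and without WT mouse 1 or 3 (limma adjusted p up to 0.0769), and the log2 fold change was 0.82 after each library was rescaled by its median ratio.

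Fabp4 (ENSMUSG00000062515, chromosome 3, 10204088 to 10208576) encodes the fatty acid binding protein of fat cells, which is also made by capillary endothelium and macrophages. It had 20.8, 43.5 and 20.4 FPKM in Gm31629-/- mice and 0.157, 0.557 and 1.02 FPKM in WT mice. Gm31629-/- mice 1 and 3 were alike, and the lowest of them lay far above the highest WT mouse. The means of 28.2 ± 13.2 and 0.578 ± 0.432 FPKM (SD, n = 3 each) differed 48.8-fold (log2 fold change 4.16 ± 0.34, adjusted p = 0.000327 with limma). The call held in every alternative that was run, with log2 fold changes of 3.81 to 5.85. The exon length of Fabp4 in the annotation is 4489 bases, its whole gene span, so its FPKM is low for the number of fragments and is not comparable with that of other genes as a transcript level.

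Lpl (ENSMUSG00000015568, chromosome 8, 68880491 to 68907448) encodes lipoprotein lipase, which frees fatty acids from circulating lipoproteins. It had 3.77, 11.3 and 3.40 FPKM in Gm31629-/- mice and 1.64, 1.89 and 1.96 FPKM in WT mice, where the spread was small (SD 0.166, n = 3). Without Gm31629-/- mouse 2 its log2 fold change went from 1.17 (standard error 0.38, limma adjusted p = 0.0425) to 0.70, below the threshold on the fold. It also lost its call without WT mouse 1, 2 or 3, where the adjusted p reached 0.114, after median-ratio rescaling (log2 fold change 0.97, limma adjusted p = 0.0591) and with no filter on low values (adjusted p = 0.0833). Lipe (ENSMUSG00000003123, chromosome 7, 25379527 to 25398710) encodes hormone-sensitive lipase, which hydrolyses stored fat. It had 3.17, 9.52 and 5.52 FPKM in Gm31629-/- mice and 1.39, 1.10 and 2.08 FPKM in WT mice. Lipe rose with a log2 fold change of 1.40 ± 0.34 (limma, adjusted p = 0.0153), and the call was lost by a small margin without WT mouse 1 or 2 (limma adjusted p = 0.0525 and 0.0534). The antisense gene 4732471J01Rik covers 15.6% of its exon length and was itself called higher (0.604 ± 0.228 FPKM in WT and 2.46 ± 0.847 in Gm31629-/- mice; log2 fold change 1.08; limma, adjusted p = 0.00959). Its part in the Lipe values was not tested, and whether fragments were counted by strand is not given in the sources used here.

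Pparg (ENSMUSG00000000440, chromosome 6, 115360951 to 115490399) went the other way. It had 19.0, 10.7 and 10.3 FPKM in Gm31629-/- mice and 61.4, 66.4 and 65.1 FPKM in WT mice. The highest Gm31629-/- value was well under the lowest WT value, and the WT mice differed little from each other. Pparg fell 4.82-fold by the means (log2 fold change -2.24 ± 0.23, adjusted p = 0.000657 with limma), and the call held in every alternative, with log2 fold changes from -2.51 to -1.77.

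**Figure D2:**
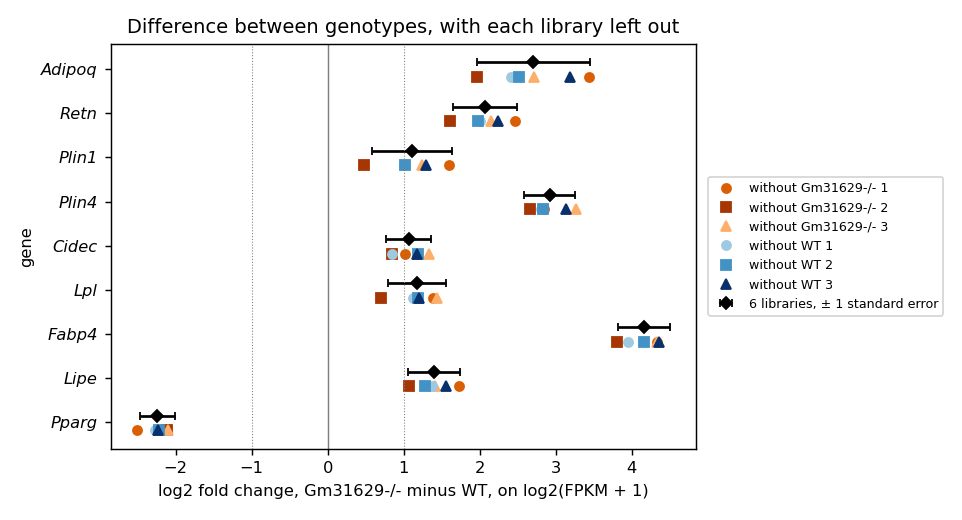
Log2 fold change of Gm31629-/- over WT on log2(FPKM + 1) for the 9 tested genes, where black diamonds are the fits with 6 libraries (bars, 1 standard error), coloured symbols are fits without the library named in the legend, and dotted lines mark the threshold. Fabp4, Plin4, Retn, Adipoq and Lipe stay above the upper line and Pparg stays below the lower line in all of these fits, whereas Plin1, Cidec and Lpl move across the upper line.

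Without overlap, the 3 Gm31629-/- libraries lay above the 3 WT libraries for 7 of the 9 tested genes and below them for 1, against 36.3% and 21.5% of all tested genes. For a single gene, an exact permutation test of 3 libraries against 3 cannot give a two-sided p below 0.1. With limma, the number of the 10 genes called higher was 3 without WT mouse 1 and 4 without WT mouse 2. It was 7, 5 and 6 without Gm31629-/- mice 1, 2 and 3, and 5 without WT mouse 3.

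The genes did not share 1 pattern over the libraries. Gm31629-/- mouse 2 was the highest of its group and WT mouse 3 the highest of its group for 8 of the 10 genes together, and for 17.6% of all tested genes. Ratios to Adipoq within a library describe this further. In the Gm31629-/- libraries, the ratio of Plin1 to Adipoq was 0.0728, 0.132 and 0.0853, and that of Retn to Adipoq 0.497, 0.231 and 0.281, so the highest was 1.81 and 2.15 times the lowest. The ratio of Plin4 to Adipoq was 2.47 in mouse 1 against 0.335 and 0.398 in mice 2 and 3. That of Fabp4 was 5.17 in mouse 1 against 1.14 and 1.60.

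The WT libraries set Cidec, Lpl, Lipe and Pparg apart from the other genes. In WT mouse 1, where Adipoq had 11 fragments and Plin1 2, Cidec had 324 fragments, Lpl 318, Lipe 151 and Pparg 3352. Fragments also grow with exon length, which is 1381 bases for Adipoq, 10478 for Lpl and 5886 for Lipe. By FPKM, the ratio of Lpl to Adipoq was 3.81, 2.94 and 0.619 in WT mice and 0.266 to 0.939 in Gm31629-/- mice. That of Lipe was 3.22, 1.72 and 0.658 in WT mice and 0.249 to 0.789 in Gm31629-/- mice. The ratio of Cidec to Adipoq was 21.9, 24.3 and 4.85 in WT mice and 1.02 to 7.63 in Gm31629-/- mice. The ratio of Pparg to Adipoq was 143, 103 and 20.6 in WT mice and 0.279 to 4.73 in Gm31629-/- mice. These 4 genes were thus present in a library where Adipoq and Plin1 were nearly absent, and the part of other cells in their levels was not tested.

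**Figure D3:**
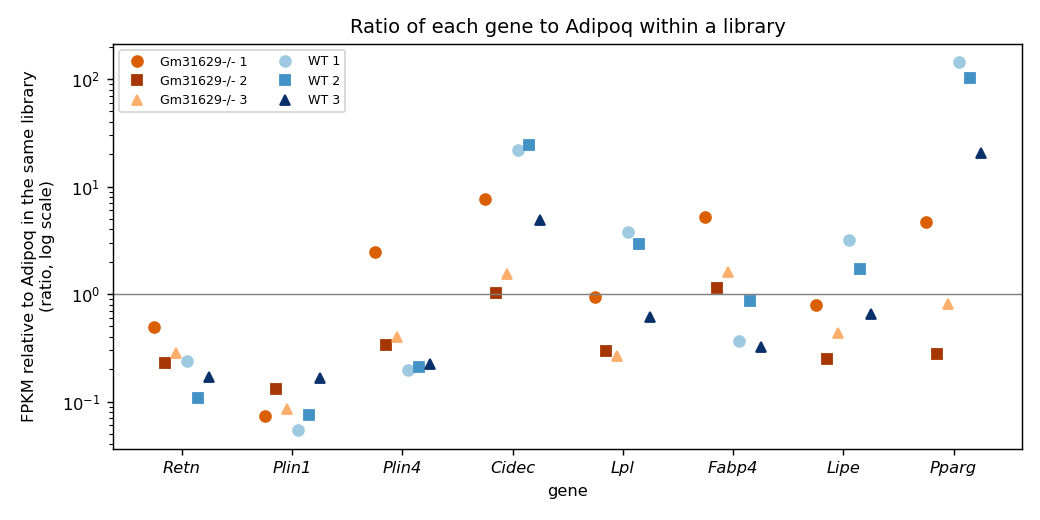
FPKM of each gene divided by that of Adipoq in the same library, on a log scale, for the 6 libraries, without Lep because of its zeros, and with WT ratios of Retn and Plin1 that rest on as few as 2 fragments. Retn and Plin1 lie in the narrowest bands, Plin4, Cidec, Lpl, Fabp4, Lipe and Pparg span more than a decade, and for Cidec, Lpl, Lipe and Pparg 1 of WT mice 1 and 2 has the highest ratio.

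Likeness to Adipoq was measured over all tested genes as the root mean square difference over the 6 libraries of log2(FPKM + 1), after the mean of each gene was subtracted. The SD of Adipoq itself on this scale was 1.67. The nearest gene was Car3, the carbonic anhydrase abundant in fat cells, at 0.481, with 97.3 FPKM in Gm31629-/- mouse 2 and 1.42 to 24.3 in the other libraries. Then came Smim3 (0.494), Il1b (0.495, the cytokine interleukin 1 beta), Saa3 (0.502, an acute phase protein), Cyp2e1 (0.509, a cytochrome P450 also made by fat cells), Mmp19, Tgfbi, Ssc5d, Cebpb and Gm47791 (0.573). These genes were chosen for following Adipoq, so that their order over the libraries is fixed by the choice. Of the other fat cell genes, Retn ranked 17, Lipe 473, Plin4 483, Plin1 526, Fabp4 819, Lpl 1054, Cidec 1952 and Pparg 14550. The measure counts the size of differences as well as their order, and log2(FPKM + 1) shrinks differences in low genes such as Plin1 (mean 1.17 FPKM). The genes nearest to Pparg were Vnn1 (0.171), Pla2g12b (0.173), Chdh (0.201), Slc12a8 (0.206) and Ugt2b35 (0.221). Each has its 3 WT values on top, which is likewise fixed by the choice.

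Several of the genes belong to families with members in other cells, and a list of relatives was examined for each. Of the perilipins, Plin2, which coats droplets in most cells, rose from 47.9 ± 3.90 to 119 ± 26.6 FPKM (SD over 3 mice; log2 fold change 1.28; limma, adjusted p = 0.00212). Plin3 had 66.4 ± 6.69 FPKM in WT mice and 44.1 ± 8.80 in Gm31629-/- mice and was not called (log2 fold change -0.59, adjusted p = 0.0317), and Plin5 was below the filter (0.295 and 0.156 FPKM). Of the CIDE genes, Cideb had 4.84 ± 0.681 and 4.38 ± 0.0860 FPKM and Cidea 0.0155 and 0.404 FPKM in WT and Gm31629-/- mice. Of the resistin genes, the macrophage gene Retnla and the neutrophil gene Retnlg rose with Retn (log2 fold changes 1.86 and 3.48), and Retnlb, made by goblet cells, fell (log2 fold change -1.44, adjusted p = 0.0116). After scaling to epithelial markers Retnlb was no longer called (log2 fold change -0.95).

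Of 7 fatty acid binding protein genes examined, Fabp5 rose with Fabp4 (log2 fold change 2.06, adjusted p = 0.00269). Fabp2, which serves absorptive enterocytes, fell from 68.2 ± 9.61 to 12.6 ± 12.3 FPKM (log2 fold change -2.71, adjusted p = 0.0075). Fabp3 (0.285 and 1.41 FPKM in WT and Gm31629-/- mice) and Fabp6 (7.49 and 2.34 FPKM) were not called. Fabp6 was called lower (log2 fold change -1.49) after median-ratio rescaling, and also without Gm31629-/- mouse 2 or WT mouse 2. Fabp3 was called higher after scaling to epithelial markers (1.07), and also without Gm31629-/- mouse 3. Fabp1 and Fabp7 were below the filter. All 3 PPAR genes were lower in each Gm31629-/- library than in any WT library. Ppara, the PPAR of fatty acid oxidation, fell from 7.43 ± 2.36 to 0.741 ± 0.464 FPKM (log2 fold change -2.27, limma adjusted p = 0.00126), and Ppard had 85.4 ± 4.53 and 44.6 ± 6.04 FPKM, with a log2 fold change of -0.93 that missed the fold threshold and passed it after median-ratio rescaling (-1.19) and without Gm31629-/- mouse 3. Of the lipase genes related to Lpl, endothelial lipase Lipg fell (log2 fold change -1.07, limma adjusted p = 0.0302), a call lost after scaling to epithelial markers (-0.64) and without any 1 library other than Gm31629-/- mouse 2. Lipc was below the filter, and pancreatic lipase Pnlip had 197.6 FPKM in Gm31629-/- mouse 3 and at most 0.0366 in the other libraries.

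Of 69 further genes of fat cell function, 63 passed the filter, of which 25 were called higher and 3 lower, with a median log2 fold change of 0.43 against 0.15 over all tested genes. Over all tested genes 18.4% were called higher and 4.64% lower, and 14 of the 25 passed the filter only through the Gm31629-/- libraries, with WT means below 0.5 FPKM, so these counts are a description. These genes were grouped into 7 lists by role. Of 8 tested genes for secreted proteins, 5 were called higher (median log2 fold change 1.94). Cfd, the gene of adipsin, had 149.8, 375.7 and 86.2 FPKM in Gm31629-/- mice and 3.40, 2.71 and 36.4 in WT mice, so WT mouse 3 again stood above its group (log2 fold change 4.33, limma adjusted p = 0.00959). Angptl4, a secreted inhibitor of lipoprotein lipase, rose from 0.951 ± 0.626 to 17.3 ± 7.16 FPKM (SD over 3 mice; log2 fold change 3.20; limma, adjusted p = 0.00107). Of 6 hormone receptors, the leptin receptor gene Lepr and the adiponectin-binding cadherin gene Cdh13 rose (log2 fold changes 1.53 and 1.33). The resistin-binding Cap1 did not pass (183 ± 8.67 and 169 ± 55.2 FPKM in WT and Gm31629-/- mice), and neither did Adipor1, Adipor2 and Insr.

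Of 8 tested lipolysis genes, G0s2, an inhibitor of fat hydrolysis, and Adrb3, the beta-3 adrenergic receptor of fat cells, were called higher (log2 fold changes 3.23 and 1.56). Pnpla2, the first lipase of stored fat, had 82.2 ± 6.03 FPKM in WT mice and 71.3 ± 14.3 in Gm31629-/- mice. Of 10 tested uptake genes, 6 were called higher. Among them were Cav1 and Cavin1, which form caveolae in fat cells, endothelium and smooth muscle (log2 fold changes 4.20 and 3.82), and the fatty acid translocase gene Cd36 (3.37, limma adjusted p = 0.000467). Of 7 tested genes enriched in fat cells, 5 were called higher, against 18.4% of all tested genes. Among them were Sncg, which is also a neuronal gene, and Cyp2e1 (log2 fold changes 4.37 and 2.87). Of these 5, 4 passed the filter only through the Gm31629-/- libraries. The number called higher was 2 without Gm31629-/- mouse 2, WT mouse 1 or WT mouse 2, 3 without WT mouse 3 and 4 without Gm31629-/- mouse 3. Car3 had 3.32, 97.3 and 24.3 FPKM in Gm31629-/- mice and 1.42, 1.71 and 7.80 in WT mice, and did not pass (log2 fold change 2.52, limma adjusted p = 0.0966), except after scaling to epithelial markers (2.90, adjusted p = 0.0312).

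The 3 further genes called lower were all among the 15 of lipid synthesis, of which 1 was called higher, with a median log2 fold change of -0.25. Fasn, the fatty acid synthase, fell from 35.4 ± 5.50 to 8.85 ± 0.721 FPKM (SD over 3 mice; log2 fold change -1.88; limma, adjusted p = 0.000374), Gpd1 fell from 11.7 ± 2.35 to 3.98 ± 1.30 FPKM (log2 fold change -1.37), and Acaca fell with a log2 fold change of -1.07. Thrsp, a lipogenic gene of fat and liver, rose (log2 fold change 1.42, adjusted p = 0.0212), a call lost without Gm31629-/- mouse 3, WT mouse 1 or WT mouse 2. Dgat2, which makes triglyceride, had 88.5 ± 21.6 and 75.7 ± 7.23 FPKM in WT and Gm31629-/- mice. After scaling to epithelial markers, Gpd1 and Acaca were no longer called (log2 fold changes -0.94 and -0.71). Agpat2 joined the genes called lower without Gm31629-/- mouse 2, Gm31629-/- mouse 3 or WT mouse 1, and after median-ratio rescaling (log2 fold change -1.19).

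**Figure D4:**
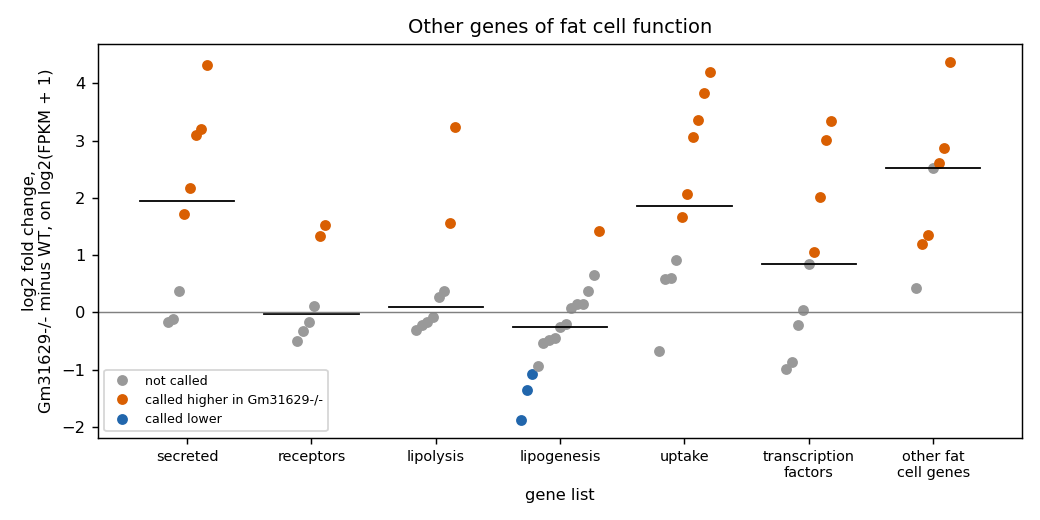
Log2 fold change of Gm31629-/- over WT on log2(FPKM + 1) for the 63 tested genes of 7 further lists, 1 point per gene, with a line at the median of each list. Genes of uptake, secretion and other fat cell genes reach above 4, and the 3 genes called lower are in the lipogenesis list.

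Of 9 tested transcription factor genes, 4 were called higher, namely Cebpb, Cebpd, Klf15 and Zfp423, the last of which missed the fold threshold after median-ratio rescaling (log2 fold change 0.97). The number was 3 without Gm31629-/- mouse 2, WT mouse 1 or WT mouse 2. Of this list, Rxra was called lower without Gm31629-/- mouse 1, Gm31629-/- mouse 3 or WT mouse 1, and Srebf1 without Gm31629-/- mouse 2 or WT mouse 2. Rxra and Srebf1 were also called lower after median-ratio rescaling (log2 fold changes -1.243 and -1.125). The C/EBP factors act with PPARG in fat cell differentiation. Cebpd rose from 7.74 ± 1.19 to 93.9 ± 46.1 FPKM and Cebpb from 0.961 ± 0.171 to 17.5 ± 10.9 FPKM (SD over 3 mice; log2 fold changes 3.34 and 3.00; limma, adjusted p = 0.000556 and 0.00365), and both are also induced in inflammation. Cebpa, named here for its motif and chosen after its values were seen, had 24.8 ± 4.44 and 21.5 ± 6.76 FPKM in WT and Gm31629-/- mice. Of 8 tested genes known as PPAR targets, Plin2, Angptl4 and Cd36 were called higher, against 18.4% of all tested genes. Cd36 passed the filter only through the Gm31629-/- libraries (WT mean 0.167 FPKM).

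RefSeq promoter windows of GRCm38.p6, which run from 250 bases before to 50 bases after a start site, were given for 8 of the 10 genes, with 12 start sites in all, and not for Fabp4 and Lpl. They were searched on both strands for a C/EBP motif (TTGCNNAA) and for the direct repeat bound by PPAR and RXR (the DR1 motif). The C/EBP motif was found in 4 of the 12 windows, against 10.8% of all 32851 promoter windows, and the PPAR motif in none of the 12, against 0.381%. The 4 windows with a C/EBP match are shown because they include a gene that fell (Pparg) beside Lep, Plin1 and Cidec, and capitals mark each match.
Lep (chr6:29059971-29060270, + strand): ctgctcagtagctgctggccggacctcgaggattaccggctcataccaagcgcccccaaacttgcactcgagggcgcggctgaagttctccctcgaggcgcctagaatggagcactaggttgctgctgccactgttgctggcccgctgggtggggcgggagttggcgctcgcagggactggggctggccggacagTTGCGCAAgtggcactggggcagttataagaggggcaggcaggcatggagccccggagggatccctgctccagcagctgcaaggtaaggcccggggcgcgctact
Plin1 (chr7:79732727-79733026, - strand): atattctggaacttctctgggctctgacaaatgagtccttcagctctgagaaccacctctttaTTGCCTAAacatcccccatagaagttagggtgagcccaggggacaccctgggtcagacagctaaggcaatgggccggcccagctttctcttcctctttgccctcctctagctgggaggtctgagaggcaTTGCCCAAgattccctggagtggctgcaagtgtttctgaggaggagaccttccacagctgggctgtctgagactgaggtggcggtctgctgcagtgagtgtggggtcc
Cidec, downstream start (chr6:113434715-113435014, - strand): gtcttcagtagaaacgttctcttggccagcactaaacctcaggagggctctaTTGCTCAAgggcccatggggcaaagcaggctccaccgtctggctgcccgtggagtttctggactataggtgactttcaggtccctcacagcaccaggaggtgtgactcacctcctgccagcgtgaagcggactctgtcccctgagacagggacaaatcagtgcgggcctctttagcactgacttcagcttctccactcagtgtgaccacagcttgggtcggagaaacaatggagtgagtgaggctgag
Pparg, farthest downstream start (chr6:115421816-115422115, + strand): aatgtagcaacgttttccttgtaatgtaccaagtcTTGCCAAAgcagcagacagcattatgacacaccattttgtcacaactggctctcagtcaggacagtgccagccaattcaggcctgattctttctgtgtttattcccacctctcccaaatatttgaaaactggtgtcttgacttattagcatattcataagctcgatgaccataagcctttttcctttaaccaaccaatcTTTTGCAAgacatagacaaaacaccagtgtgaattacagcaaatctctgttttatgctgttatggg
The match began 55 bases before the start of Lep, 187 and 58 bases before that of Plin1, 198 bases before that of Cidec, and 215 and 16 bases before that of Pparg. These matches are a description of the letters, and whether a factor binds there was not measured.

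Markers of other cells of the gut wall were also higher in Gm31629-/- mice. All 8 endothelial markers, 8 of 9 tested stromal markers, 7 of 8 macrophage markers and 7 of 8 smooth muscle markers were called higher in Gm31629-/- mice, against 18.4% of all tested genes, and the same counts were found without each library in turn. Of these 30 genes, 13 passed the filter only through the Gm31629-/- libraries, 6 of them endothelial. Of the defining markers, Pecam1 had 20.7 ± 6.38 FPKM in Gm31629-/- mice and 1.33 ± 0.516 in WT mice (SD, n = 3 each), Acta2 557.5 ± 95.5 and 8.25 ± 5.18, Adgre1 7.67 ± 6.14 and 0.435 ± 0.0159, and Col1a1 60.6 ± 40.0 and 7.01 ± 2.11. Within the Gm31629-/- group, the summed FPKM of stroma was 162, 451 and 280 in mice 1 to 3, that of endothelium 52.5, 89.6 and 66.9, and that of macrophages 576, 1346 and 683, so that mouse 2 was highest and mouse 1 lowest in each, as for Adipoq. Smooth muscle had another order, with 1679, 1246 and 1105 FPKM. So had B cell markers of lymph nodes, with 27.6, 13.4 and 45.6 FPKM against 1.98 to 3.49 in WT mice. Of 4 tested B cell markers, 3 were called higher (2 or 3 without 1 library), and 2 of the 3 passed the filter only through the Gm31629-/- libraries. The part of these cells in the levels of Fabp4, Lpl, Plin4 and Cidec was not tested.

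Mesothelial markers, of the cells that cover the outer surface of gut and mesentery, had sums of 24.5, 45.6 and 3.82 FPKM in Gm31629-/- mice 1 to 3 and 2.51, 2.60 and 3.02 FPKM in WT mice. Upk1b held most of the WT sums, with 1.51 to 1.99 FPKM against 0.400 in Gm31629-/- mouse 3. In Msln, Upk3b and Gpm6a, Gm31629-/- mouse 3 lay below mice 1 and 2 and above the WT mice. Of the 4 tested mesothelial markers 3 were called higher by limma, against 18.4% of all tested genes. Of these 3, 2 passed the filter only through the Gm31629-/- libraries. The number called higher was 3 without Gm31629-/- mouse 3, 1 without Gm31629-/- mouse 1 or 2 or WT mouse 2, and 0 without WT mouse 1 or 3. Msln had 15.0, 24.5 and 2.70 FPKM in Gm31629-/- mice and 0.537 to 1.05 FPKM in WT mice. Of 4 tested brown and beige fat markers, 0 were called higher, against 18.4% of all tested genes, and 1 was called higher without Gm31629-/- mouse 1. Cox7a1, the highest of them, had 6.12 ± 0.304 FPKM in WT mice and 7.89 ± 3.25 in Gm31629-/- mice (limma adjusted p = 0.532). Dio2, Ppargc1a and Prdm16 had log2 fold changes of 0.876, 0.51 and -0.025, and Dio2 was called higher (1.08) after scaling to epithelial markers. Below the filter, Cidea, Cox8b and Elovl3 had 26, 13 and 0 fragments in Gm31629-/- mice and 1, 0 and 1 in WT mice. Ucp1 was not analysed here. Of 12 epithelial markers, Krt8, Krt19 and Car1 were called lower (log2 fold changes -1.05, -1.002 and -2.14), and Epcam had 1104 ± 85.1 FPKM in WT mice and 1109 ± 103.5 in Gm31629-/- mice. Krt8 was not called without Gm31629-/- mouse 1, Krt19 was not called without that mouse or WT mouse 2, and Car1 was not called without WT mouse 3. After scaling to epithelial markers, Krt8 and Krt19 were no longer called (log2 fold changes -0.565 and -0.513). Slc26a3 was higher in Gm31629-/- mice by the means, with 154.5, 14.65 and 129.4 FPKM against 49.47, 36.8 and 19.0 in WT mice. It was not called (log2 fold change 1.02, limma adjusted p = 0.362). Without Gm31629-/- mouse 2, 1 epithelial marker was called higher. The summed FPKM of these epithelial markers was 8489 to 10850 in Gm31629-/- mice and 16410 to 17830 in WT mice. The sums are weighted toward the genes with the highest FPKM, among them the 3 called lower. Their means in Gm31629-/- and WT mice were 2042 and 4198 FPKM for Krt8, 1042 and 2068 for Krt19, and 1249 and 4692 for Car1. Of the 12 markers, 6 were lower in all 3 Gm31629-/- libraries than in any WT library, and 0 were higher in all 3. Pparg, which absorptive epithelium also expresses, was lower in the same 3 libraries, and the part of the epithelium in its level was not tested. Scaling the libraries to epithelial markers moved the median log2 fold change of all tested genes from 0.15 to 0.52, and rescaling by the median ratio moved it to -0.05.

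**Figure D5:**
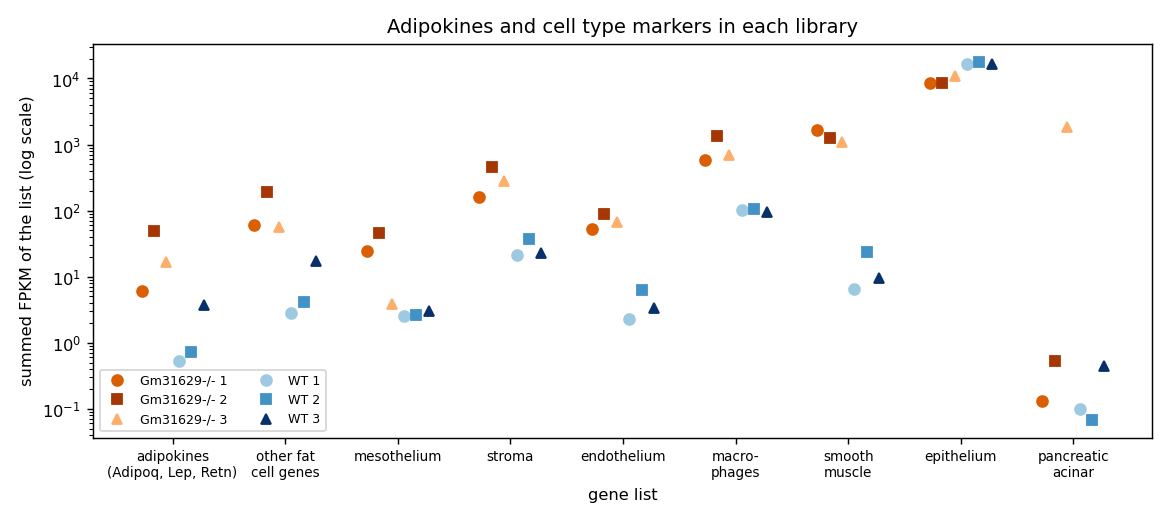
Summed FPKM of the adipokine genes and of marker lists for other cells in each of the 6 libraries, on a log scale. Adipokines, other fat cell genes, stroma, endothelium and macrophages have Gm31629-/- mouse 2 on top, the mesothelial sums are highest in Gm31629-/- mice 1 and 2, and pancreatic acinar genes stand at 1849 FPKM in Gm31629-/- mouse 3 alone.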

How the data were processed

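RNA-Seq of colon from 3 Gm31629-/- and 3 WT mice was analysed, with groups and replicate numbers taken from the labels. The authors deposited FPKM values, already divided by gene length and library depth, and the submitters' processing notes name HISAT2 2.1.0, HTSeq 0.6.0 and GRCm38, with no role given. Symbols, positions and exon lengths came from GENCODE M21 and matched 27488 of 27546 identifiers. Fragments were recovered as FPKM times exon length and depth, and 96.3% to 97.3% of values up to 20 fragments lay within 0.1 of a whole number. Limits from 3 fragments cover counting error only.

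Genes with a mean of at least 0.5 FPKM were tested with limma 3.58.1 in R 4.3.3 (eBayes with a trend) on log2(FPKM + 1), so fold changes of low genes are understated. All p-values are Benjamini-Hochberg adjusted, over the 14657 genes tested in the main fit and over the genes kept in each alternative. They set the group difference against the spread between libraries within the groups, which limma moderates across genes. On simulated data with 200 changed genes, 63.5% were recovered at a log2 change of 1.5 and 91% at 2.5. Alternatives were another pseudocount, filters, scalings, limma voom and treat, a replicate block, and leaving out each library. The DEGseq test of the study needs counts and was not repeated.

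The 10 genes and the other lists were chosen with earlier results of these data known. Named genes were the 10 genes, all family members, defining markers, the genes nearest to Adipoq and Pparg, and in each other list up to 2 called genes with the largest change in each direction and the gene with the highest mean FPKM. Others were named where a count of 5 or fewer called for it, after their values were seen. One result of the PPAR target list is not reported here.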

Additional observations from a re-analysis of the deposited data

How the results depend on the processing

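None of the 9 tested genes changed sign under any alternative that was run, and Pparg was the 1 gene called lower in each. The 7 genes called higher became 3 with a mean of at least 5 FPKM, where fewer genes were tested, and 2 with limma treat, which tests against the fold threshold itself. The number was 5 after median-ratio rescaling and 5 with no filter on low values. Leaving out 1 library gave 3 to 7, with 3 without WT mouse 1 and 4 without WT mouse 2. Of the further fat cell genes, the 25 called higher became 13 with a mean of at least 5 FPKM and 12 with limma treat, and 20 to 26 without 1 library. The 3 called lower became 5 with a pseudocount of 0.1 or limma voom, 6 after median-ratio rescaling, 9 with the adjusted p alone, 1 after scaling to epithelial markers or with limma treat, and 3 to 5 without 1 library. With 5 without Gm31629-/- mouse 2, Gm31629-/- mouse 3 or WT mouse 1, this count also rests on single libraries. Other than where an alternative's own construction shows it, the cause was not tested.

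No pairing by replicate number was seen. Same-numbered deviations correlated at 0.036, -0.108 and 0.014, and those with unlike numbers at -0.133 to 0.116. These correlations over all tested genes cannot exclude a pairing, and the labels name none. A replicate block left 7 genes called higher and 1 lower, and 25 and 3 of the further genes. Depth limits Lep, Plin1 and Retn most, which had 0 to 4 fragments in WT mice 1 and 2.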
